A study of Homo sapiens with 4 samples.

Results

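The TGF-β and BMP ligands and receptors were examined in RIP-seq of Flag-tagged YTHDC1 in MDA-MB-231 cells. They are the 10 genes TGFB1, TGFB2, TGFBR1, TGFBR2, TGFBR3, ACVR1, ACVR1B, ACVR2A, BMPR1A and BMPR2, chosen by name, and every transcript listed under these names was kept. All 10 genes were listed, with 38 of the 75165 transcripts and among 20298 genes in all. MDA-MB-231 is an established triple negative breast cancer line with a mesenchymal character, and YTHDC1 is a nuclear protein that reads N6-methyladenosine in RNA. In both groups the cells carried 3x flag-YTHDC1, delivered by lentivirus at a multiplicity of infection of 4 and selected with puromycin at 2 μg/ml for 4 days. RIP-seq sequences the RNA recovered with an immunoprecipitated protein beside that of the starting lysate. The Flag-YTHDC1 IP group (2 libraries) came from UV-crosslinked nuclear lysate holding 500 μg of protein, incubated with 5 μg of anti-Flag antibody. The input group (2 libraries) came from a part of such nuclear lysate holding 50 μg of protein. The design is thus limited to 1 cell line and to an overexpressed protein, and libraries from a control antibody are not analysed here.

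The value used throughout is the mean normalized count, the authors' mean of the size-factor-normalized read estimates of a transcript, taken here to cover the 4 libraries that the labels give. It merges IP and input, so the abundance of an RNA in the lysate and its recovery with YTHDC1 cannot be told apart in it, and the groups were not compared here. It also carries no replicate error, and the depth of each library is unknown. A difference between transcripts is therefore given as a value without a test. The counts are not per length, so they say how many reads a transcript or gene drew. They do not say how its level ranks against another transcript or gene. Shares within a gene are likewise shares of reads and not of RNA molecules.

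TGF-β and BMP ligands are secreted dimers. A ligand brings together type II and type I receptors, both serine/threonine kinases, and the type II kinase phosphorylates the type I receptor, which in turn phosphorylates SMAD proteins. TGFBR1 and ACVR1B act on SMAD2 and SMAD3, whereas ACVR1 and BMPR1A act mainly on SMAD1, SMAD5 and SMAD9. In breast cancer cells TGF-β is known for promoting epithelial-mesenchymal transition and invasion. Transcripts annotated as nonsense-mediated decay hold a premature stop codon that marks an mRNA for degradation in the cytoplasm, retained-intron transcripts keep an intron, and processed transcripts lack an annotated open reading frame.

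The labelled cell line was checked against markers. All 6 genes expected in a mesenchymal-like line were listed, led by VIM with a summed mean normalized count of 80785 and AXL with 63189. ZEB1 drew the fewest reads of the 6, with 1823. The epithelial cadherin CDH1 had 10.0 and the epithelial adhesion molecule EPCAM had 78.3, and the hormone receptor genes ESR1 and PGR were not listed. ERBB2, the HER2 receptor gene, is expected to be low in such a line but was listed with 4303 over 15 transcripts. The blood cell marker PTPRC was at 3.81, the endothelial marker PECAM1 at 102, and the fibroblast collagens COL1A1 and COL1A2 at 705 and 490.4. These 4 genes of other cell types summed to 1301, of which COL1A1 drew the most reads. The tagged gene itself, YTHDC1, had a summed mean normalized count of 55488, above 99.8% of the 14050 protein-coding genes, of which 60.6% fell to YTHDC1-207 and 38.5% to YTHDC1-202.

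Reads of the 10 genes were concentrated in protein-coding transcripts, with the type I receptor BMPR1A and the co-receptor TGFBR3 as exceptions. Protein-coding transcripts took 92.2% of the summed mean normalized count of the 10 genes, against 87.6% over all protein-coding genes. With each gene weighted equally the share was 83.3% in the group and 81.9% over all protein-coding genes. By type, 23 of the 38 transcripts were protein-coding, 8 were processed transcripts, 5 nonsense-mediated decay and 2 retained-intron transcripts. The median mean normalized count was 294 for the protein-coding transcripts, 274 for the nonsense-mediated decay transcripts, 20.6 for the processed transcripts and 10.6 for the retained-intron transcripts. Over all protein-coding genes the medians of the same types were 91.0, 42.1, 26.7 and 22.6. Over all types the 38 transcripts had a median of 143, against 52.2 for all transcripts of protein-coding genes. A gene of the group had 2 to 5 listed transcripts with a median of 4, equal to the median of all protein-coding genes.

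**Figure D1:**
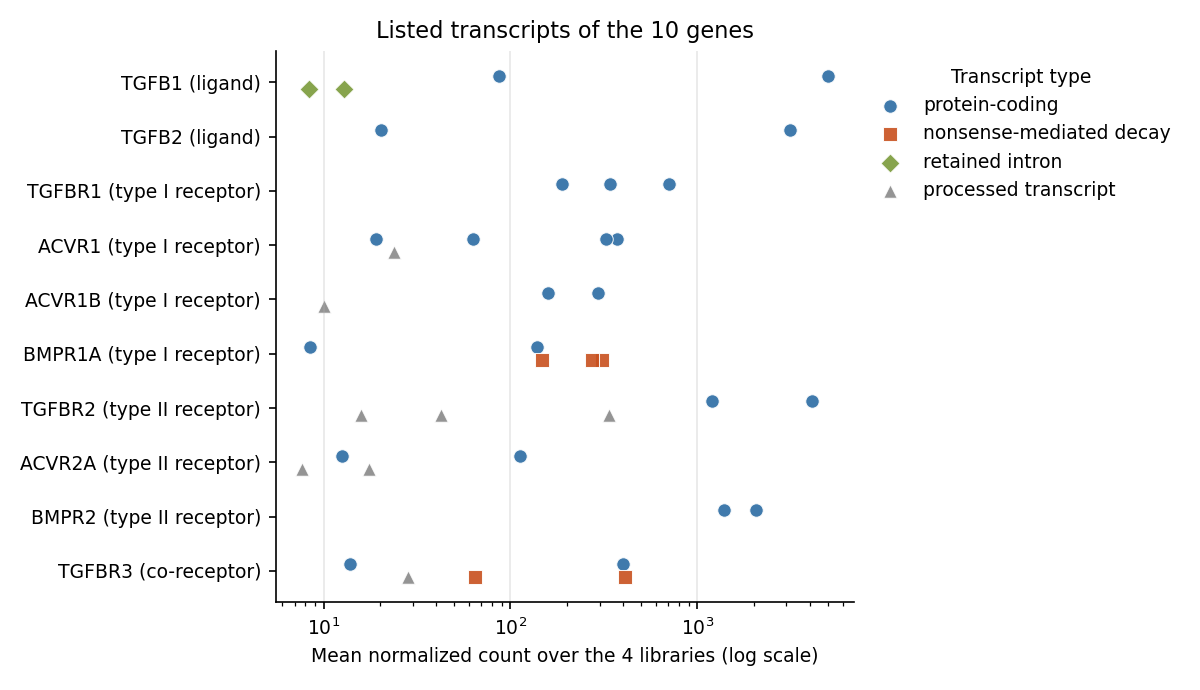
Mean normalized count over the 4 libraries (x axis, log scale) of each of the 38 listed transcripts, by gene, with 1 symbol a transcript, coloured by its annotated type and set slightly apart by type. TGFB1 and TGFB2 each show 1 transcript at 3127 or more and the others below 100, while the BMPR1A transcripts of highest count are nonsense-mediated decay transcripts.

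Both ligand genes drew nearly all reads to a single protein-coding transcript. TGFB1 encodes the ligand that gave the family its name (ENSG00000105329.10, GRCh38 chromosome 19, 41330323 to 41353922). Its 4 transcripts summed to 5102 normalized counts, and TGFB1-201 (ENST00000221930.6) held 4994 of them, or 97.9%. The other protein-coding transcript, TGFB1-203, had 86.4. The retained-intron transcripts TGFB1-204 and TGFB1-202 had 12.9 and 8.40, together 0.417% of the gene. TGFB1 was the one gene of the 10 with a listed retained-intron transcript, whereas 38.2% of all protein-coding genes had one.

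TGFB2, a ligand that depends on TGFBR3 for efficient receptor binding, lies on chromosome 1, 218345336 to 218444619 (ENSG00000092969.12). Its 2 transcripts were both protein-coding and summed to 3148 normalized counts. TGFB2-202 (ENST00000366930.9) had 3127 and TGFB2-201 had 20.3, so that 99.4% of the gene lay in the first. Among the 2013 protein-coding genes with 2 listed transcripts the median share of the leading transcript was 79.2%. The antisense gene TGFB2-AS1, which overlaps TGFB2, had 4.95, and whether the counting used the strand of the reads is not given in the sources used here.

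The type I receptors spread their reads over several transcripts. TGFBR1, the signalling receptor of TGF-β (ENSG00000106799.13, chromosome 9, 99103647 to 99154192), summed to 1239 normalized counts. All 3 of its listed transcripts were protein-coding, TGFBR1-209 (ENST00000552516.5) with 709, TGFBR1-208 with 342 and TGFBR1-202 with 188. The leading transcript thus held 57.2% of the gene, below the 67.3% that was the median for the 1902 genes with 3 listed transcripts.

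ACVR1, a type I receptor for BMPs and activins (ENSG00000115170.15, chromosome 2, 157736446 to 157876330), summed to 801 over 5 transcripts. Its reads were shared between ACVR1-207 (ENST00000434821.7) with 370.4 and ACVR1-210 with 324, a ratio of 1.14. These protein-coding transcripts held 46.2% and 40.5% of the gene. Its single processed transcript, ACVR1-209, had 23.7.

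ACVR1B, the type I receptor of activins (ENSG00000135503.13, chromosome 12, 51951699 to 51997078), summed to 464. ACVR1B-201 (ENST00000257963.9) had 294 and ACVR1B-206 had 159.7, both protein-coding, and the processed transcript ACVR1B-207 had 10.1. The leading transcript held 63.4%, against the median of 67.3% in genes with 3 listed transcripts.

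BMPR1A differed from the other type I receptors in its transcript types. It encodes a BMP receptor that signals through SMAD1, SMAD5 and SMAD9 (ENSG00000107779.13, chromosome 10, 86755763 to 86932844). Its 5 transcripts summed to 876 normalized counts, of which 83.1% lay in 3 nonsense-mediated decay transcripts. BMPR1A-204 (ENST00000636056.1) had 307, BMPR1A-205 (ENST00000638429.1) had 274 and BMPR1A-203 (ENST00000635816.1) had 147. The protein-coding transcript BMPR1A-201 (ENST00000372037.7) had 139, or 15.9% of the gene, and BMPR1A-202 had 8.47. The 2 protein-coding transcripts together were given 148 of the 876.

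The share was set against that of other genes. A nonsense-mediated decay transcript was listed beside a protein-coding one for 3966 protein-coding genes, and in these the median share of the former was 11.8%. The share of BMPR1A exceeded that of 98.6% of them, and that of 93.6% of the 4227 genes with a nonsense-mediated decay transcript listed, with or without a protein-coding one. RSEM divides reads that match several transcripts among them by estimation. The split within BMPR1A thus rests on the reads that tell its transcripts apart, whose number is not known here. The same limit holds for the splits within the other genes of the group. The pseudogene BMPR1AP2, which lies on chromosome 11, was listed with 77.5 normalized counts, and how reads were divided between it and BMPR1A was not tested.

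**Figure D2:**
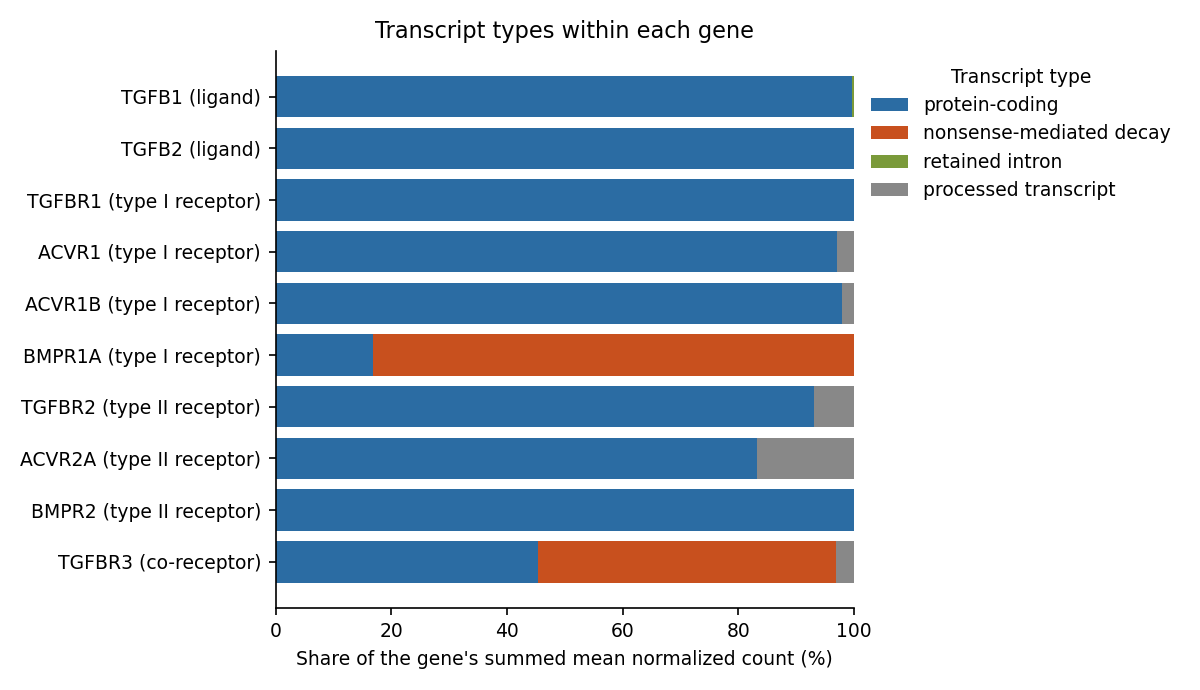
Share of each gene's summed mean normalized count (x axis, %) in each annotated transcript type, with genes in order of their role. Nonsense-mediated decay transcripts fill 83.1% of BMPR1A and 51.6% of TGFBR3 and none of the other 8 genes.

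The type II receptors had protein-coding transcripts in the lead. TGFBR2, which binds TGF-β and phosphorylates TGFBR1 (ENSG00000163513.19, chromosome 3, 30606356 to 30694142), had the highest sum of the 10 genes with 5732 normalized counts. TGFBR2-201 (ENST00000295754.10) had 4134, or 72.1%, and the second protein-coding transcript, TGFBR2-202 (ENST00000359013.4), had 1201, or 21.0%. The 3 processed transcripts made up 6.92%, led by TGFBR2-203 with 338. This was the highest value of the 8 processed transcripts of the group, the next being TGFBR2-204 with 42.6.

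BMPR2, the type II receptor of BMPs (ENSG00000204217.15, chromosome 2, 202376327 to 202567749), summed to 3453. It had 2 listed transcripts, both protein-coding, BMPR2-202 (ENST00000374580.10) with 2058 and BMPR2-204 (ENST00000638587.1) with 1395. The leading transcript held 59.6%, against a median of 79.2% in genes with 2 listed transcripts. TGFB2, with the same number of transcripts, lay on the other side of that median at 99.4%.

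ACVR2A, a type II receptor for activins and BMPs (ENSG00000121989.15, chromosome 2, 147844517 to 147930822), drew the fewest reads of the group. Its 4 transcripts summed to 150.1 normalized counts, more than 26.2% of the protein-coding genes. ACVR2A-202 (ENST00000404590.1) had 112 and was the only one above 20. The processed transcripts ACVR2A-206 and ACVR2A-205 had 17.5 and 7.65, which made 16.8% of the gene and the largest share of this type among the 10. The neighbouring gene ORC4 overlaps its interval and had 101.

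TGFBR3 encodes betaglycan, a co-receptor without a kinase that presents TGF-β to TGFBR2 (ENSG00000069702.11, chromosome 1, 91680343 to 91906002). Its 5 transcripts summed to 918 normalized counts and were split almost evenly between types. The nonsense-mediated decay transcript TGFBR3-209 (ENST00000532540.5) had 409 and the protein-coding TGFBR3-204 (ENST00000465892.6) had 402, a ratio of 1.02 that has no error here and does not rank them. A second nonsense-mediated decay transcript, TGFBR3-210, had 64.3, the processed transcript TGFBR3-205 had 28.5 and the protein-coding TGFBR3-203 had 13.9. Nonsense-mediated decay transcripts made up 51.6% of the gene and protein-coding transcripts 45.3%. The share in TGFBR3 exceeded that of 89.8% of the 3966 genes with both types listed and that of 85.0% of the 4227 genes with a nonsense-mediated decay transcript listed.

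BMPR1A and TGFBR3 were the 2 genes of the 10 with any listed nonsense-mediated decay transcript, and in both most of the sum lay in this type, though by a small margin in TGFBR3. Of all protein-coding genes, 30.1% had such a transcript listed. Most of the sum lay in nonsense-mediated decay transcripts in 10.8% of the 3966 genes with both types listed, in 15.7% of the 4227 genes with a listed transcript of this type, and in 4.71% of all protein-coding genes. In BMPR1A the transcript of highest count was of this type, and in TGFBR3 the leading pair could not be ranked. In the other 8 genes of the group the transcript of highest count was protein-coding, as it was in 87.1% of all protein-coding genes. With 10 genes and no replicate error these shares are a description of the group.

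**Figure D3:**
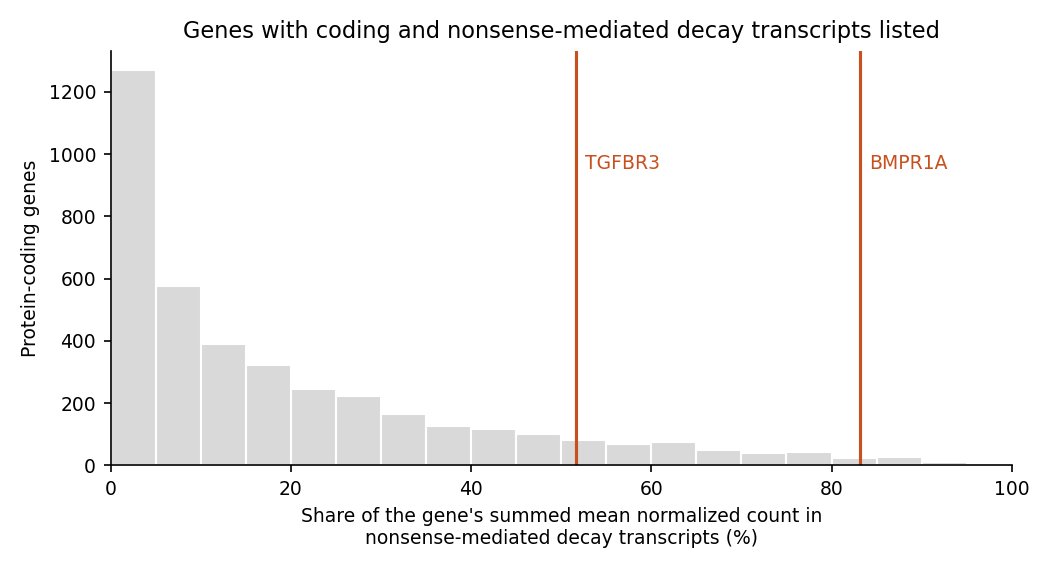
Share of the summed mean normalized count in nonsense-mediated decay transcripts (x axis, %, bins of 5) for the 3966 protein-coding genes with both this type and a protein-coding transcript listed (y axis, number of genes). Vertical lines mark TGFBR3 at 51.6%, above 89.8% of these genes, and BMPR1A at 83.1%, above 98.6% of them. The median gene is at 11.8%.

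A single transcript held over 50% of the sum in 7 of the 10 genes, as in 67.3% of the 11482 protein-coding genes with at least 2 listed transcripts. The exceptions were ACVR1, BMPR1A and TGFBR3. The median share of the leading transcript was 61.5% in the group and 59.7% in those genes. TGFB1 and TGFB2 were the 2 genes above 80%, a mark passed by 22.1% of genes with at least 2 transcripts. By role, the 2 ligands drew 37.7% of the reads of the group, the 3 type II receptors 42.7%, the 4 type I receptors 15.4% and TGFBR3 4.19%. Of the 10 genes, 8 summed to more than the median protein-coding gene, which had 588, and ACVR1B and ACVR2A to less.

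The other genes of the pathway were taken from a list of 78, of which 53 were listed with 220 transcripts. A gene that is not listed may have fallen below the authors' minimum of reads. Protein-coding transcripts took 92.3% of the sum of these 53 genes, but THBS1 alone held 68.4% of that sum, and the share was 90.6% over the other 52 genes. With each gene weighted equally it was 89.4%, against 83.3% in the 10 ligands and receptors. All 10 had at least 2 listed transcripts, whereas only 38 of the 53 did. The rest of the 53 had a single transcript, always protein-coding, which raises their mean, so the 2 means are not on like terms. The transcript of highest count was protein-coding in 49 of the 53 genes. It was a nonsense-mediated decay transcript in LTBP2, a latent TGF-β binding protein, with 62.8% of the gene, and in TWSG1, which binds BMPs outside the cell, with 90.0%. It was a retained-intron transcript in ACVR2B, the relative of ACVR2A, with 52.8%, and in FST, the activin antagonist follistatin, with 52.0%. LTBP2 was named after its values were seen.

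Of the 31 other ligands 17 were listed, with BMP4 at 10409 normalized counts, then GDF11 at 971 and AMH at 550.1. The lowest were INHA at 4.48, GDF9 at 6.02 and BMP3 at 9.08. TGFB3, the remaining TGF-β ligand and named after its value was seen, had 107, while TGFB1 and TGFB2 had 5102 and 3148. Of the 5 other receptors, ACVR2B with 593 and BMPR1B with 111 were listed, and the type I receptors ACVR1C and ACVRL1 and the hormone receptor AMHR2 were not. Among 6 co-receptors and decoys, RGMB had 1893, the decoy receptor BAMBI 491 and the endothelial co-receptor ENG 11.6.

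Genes that store and activate latent TGF-β were listed for 9 of 11. The highest were THBS1, which can activate latent TGF-β, at 161365, LTBP4 at 3669 and the protease FURIN, which cleaves the TGF-β precursor, at 3050.4. The lowest were the integrin subunit ITGB8 at 104, NRROS at 456 and the integrin subunit ITGAV at 1129. Of the 10 extracellular inhibitors 7 were listed, with FSTL1 at 3274, FSTL3 at 1914 and TWSG1 at 1137 as the highest, and CHRDL1 at 78.2, GREM1 at 89.3 and FST at 889 as the lowest. All 15 SMAD genes and regulators were listed, from SMAD9 at 40.9, SMAD1 at 172 and SMAD6 at 459 up to SMURF2 at 5368, SKI at 7275 and SMAD3 at 10590.5. SMAD3, a target of TGFBR1 and ACVR1B, thus drew more reads than each of the 10 ligand and receptor genes, while SMAD1, a target of ACVR1 and BMPR1A, drew fewer than all of them but ACVR2A. Transcript lengths were not used for these sums, so they compare reads and not levels.

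**Figure D4:**
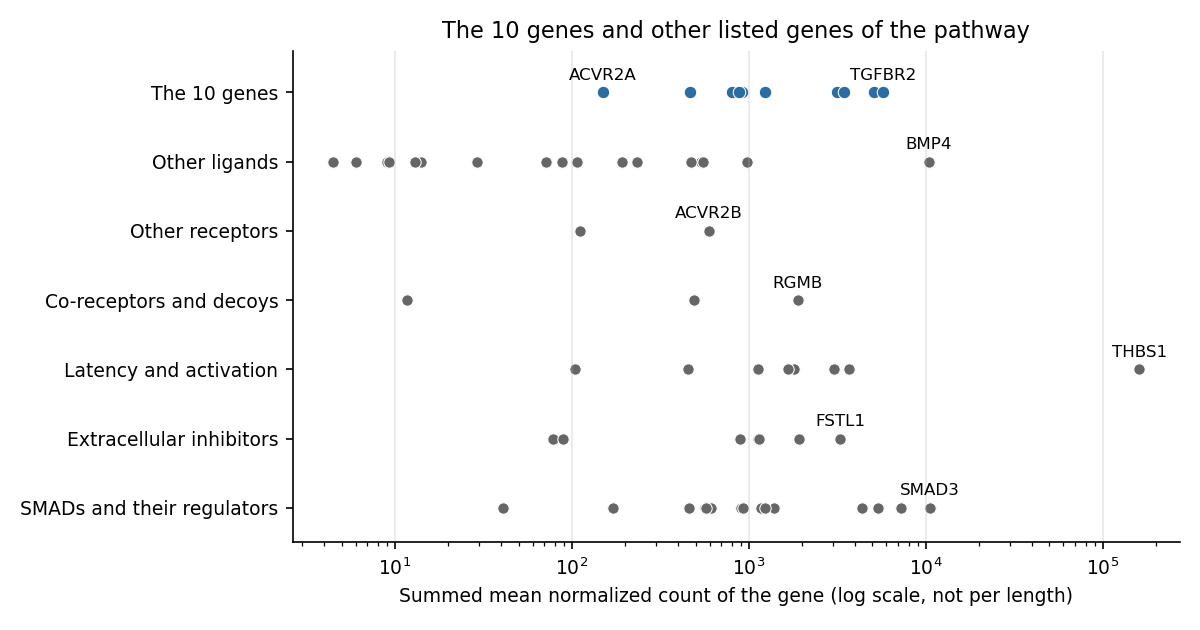
Summed mean normalized count of each listed gene (x axis, log scale, not per length), with 1 point a gene, for the 10 genes and for 6 classes of other pathway genes. The 10 genes lie between ACVR2A at 150.1 and TGFBR2 at 5732, and THBS1 at 161365 lies above all other genes shown.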

How the data were processed

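RIP-seq of 2 Flag-YTHDC1 IP and 2 input libraries was used. The authors mapped the reads with STAR (2.7.2b) to GENCODE v33 transcripts (GRCh38) and quantified transcripts with RSEM (1.2.31), versions per the submitters' processing notes. The authors required 5 or more reads in 50% or more of the samples, applied RUVSeq and ran DESeq2. The study's methods word that comparison as a knockdown of YTHDC1, whereas the labels give IP and input libraries, and the labels were followed. The deposited signal, used as it stands, averages a transcript's normalized count over the libraries compared, taken to be these 4. The deposited table also holds the authors' log2 fold change, its standard error, p-value and adjusted p-value, which were not used. Depth per library is therefore unknown, and no test was run. A count test planned for values per library could not be made.

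Mean normalized counts were summed by gene identifier, and shares were computed by annotated type with python 3.11.15, numpy 2.4.6, pandas 2.3.3 and matplotlib 3.10.9. The computation of shares was checked on simulated tables with known shares. Genes with protein-coding type served as background. Coordinates are RefSeq's (GRCh38.p14), matched by symbol for all 10 genes. Named were all 10 genes, their transcript of highest count and that of each other type, and the 3 highest and 3 lowest listed genes of each pathway class. Further transcripts of the 10 genes were named outside this rule, after their values were seen. The genes and lists were chosen with earlier results of these data known. No transcript or protein sequence was used here. Alternatives tried were minimum counts of 10 and 100, protein-coding transcripts alone, a share of 80%, equal weights for genes, leaving out the gene of highest sum, and the transcript of highest count alone.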

Additional observations from a re-analysis of the deposited data

How the results depend on the processing

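The number of listed transcripts of the 10 genes was 35 with a minimum mean normalized count of 10, 21 with a minimum of 100 and 23 with protein-coding transcripts alone, against 38 as reported. All 10 genes had a transcript of at least 100. The number of genes with most of their sum in 1 transcript was 7, and it was 2 with a required share of 80%. It was 9 with a minimum of 100, where BMPR1A fell short and TGFBR3 passed only through the pair that could not be ranked. With protein-coding transcripts alone it was also 9, and there ACVR1 fell short. The share of all protein-coding genes was not computed with a minimum of 100 or with protein-coding transcripts alone. The protein-coding share of the group was 92.2%, and it was 93.1% with a minimum of 100, 91.9% without TGFBR2 and 83.3% with each gene weighted equally (81.9% over all protein-coding genes on the same terms), since BMPR1A and TGFBR3 then count as much as genes with more reads. Ranked by the transcript of highest count in place of the sum, 6 of the 10 genes changed rank, and TGFB1 took the first rank from TGFBR2. Leaving out THBS1, an alternative chosen after seeing the data, moved the protein-coding share of the other pathway genes from 92.3% to 90.6%.

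Sums per kilobase were not run, since no transcript lengths were used here. No paired analysis was possible because the deposited value is a mean over all libraries, and leaving out replicates, other normalizations and filters on counts per library were not run for the same reason. The unknown depth leaves the error of each value unknown, above all for the 17 transcripts below 100 normalized counts.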
